A study of Danio rerio with 2 samples.

Results

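Keratins, claudins and genes of epithelial junctions were followed in RNA from cells sorted for a gata1-EGFP transgene in zebrafish embryos at 22 hours post fertilization. The members were the rows of the deposited table whose gene name begins as a keratin, claudin, occludin, zonula occludens, plakin, plakophilin or plakoglobin gene, or is *cdh1*, *epcam*, *tp63*, *lye* or a gene of the *agr*, *anxa1* or *icn* series, and 82 of 32105 rows matched. One group was *add1* knockout embryos and the other embryos labelled wild type, which the series describes as siblings, with 1 library each. The labels name the sorted cells erythroblasts in both groups, and both carry the transgene, a reporter of *gata1*, the gene of the main transcription factor of red cell formation. The labels give neither the number of embryos in a library nor the mutant allele. With 1 library per genotype no test was possible, and genotype cannot be told apart from any other difference between the libraries.

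Epithelial cells are held together by tight junctions, made of claudins and occludin on a scaffold of zonula occludens proteins, by adherens junctions built on E-cadherin, and by desmosomes, which anchor keratin filaments. Keratin filaments form from pairs of a type I and a type II keratin. In the zebrafish embryo such genes are used in the outer periderm, in the basal epidermis under it, in the gut, in sensory placodes and in the lining of many organs, whereas red cell precursors are not epithelial. Adducin itself is known both from the spectrin skeleton of the red cell and from cell contacts of epithelia.

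The mutant library held 5956344 counts and the sibling library 6157792 counts. Levels are given as CPM, counts scaled so that each library sums to 1000000. *add1* had 18 counts in mutant cells and 1166 in sibling cells. Red cell genes were abundant in both, with the beta globin gene *hbbe1.1* at 17002 CPM in mutant cells and 35404 CPM in sibling cells, and all 11 red cell genes of the marker list were lower in mutant cells. *gata1a* was at 623 CPM in mutant cells and 834 CPM in sibling cells, and *alas2*, the first enzyme of erythroid heme synthesis, at 1996 and 3537 CPM in the same order. Defining markers of the labelled cell type were thus present in both libraries.

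A gene was counted as measured at 10 CPM or more in the higher library. It was counted as at least 2-fold higher or lower by the ratio of CPM + 1 between the libraries. Higher or lower without a fold gives the direction only. Folds are ratios of CPM, mutant over sibling unless stated as lower, with exact 95% intervals that cover the counting of reads only. The reads carry no molecular identifiers, so these intervals may be too narrow. Since whole sorted samples were sequenced, more cells of a type and more RNA per cell cannot be told apart.

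Of the 82 members, 47 were measured, 27 had counts below the minimum and 8 had none in either library. Of the 47, 44 had a log2 ratio above 0, against 60.8% of all 9672 measured genes. They included 10 members at least 2-fold higher in mutant cells (21.3%), where 10.1% of all measured genes were, and 0 at least 2-fold lower, where 2.56% were. The median log2 ratio was 0.59 for the measured members and 0.13 for all measured genes. By level, 6 of 27 members of 10 to 50 CPM were at least 2-fold higher, against 13.1% of all genes of that level, and 4 of 20 at 50 CPM or more, against 6.35%; the shares of all genes at least 2-fold lower were 2.31% and 2.89%. A counting interval above 1 was found for 35 of the 47, against 40% of all measured genes, and one below 1 for 1, against 21.9%. Among the 10 members at least 2-fold higher, *agr1*, *cldna* and *anxa1a* reached the minimum in the mutant library only. With 10 CPM or more asked of both libraries, 7 of 41 members were at least 2-fold higher, against 5.18% of all genes. At that setting 0 were at least 2-fold lower, against 1.89%, and the medians were 0.54 for members and 0.08 for all genes. The scaling moved the values of members and of all genes together. With TMM factors and the minimum applied anew, which left out *cldna* and took in *cldn15a*, the medians were 0.38 and -0.08, 8 members were at least 2-fold higher and 1 lower, and the shares over all genes were 7.05% and 4.52%. Of the same 47 members as above, 40 then had a log2 ratio above 0, including the 10 keratins and 12 claudins among them. Of the same 9672 genes, 44.9% did. With these factors 9 of the 47 were at least 2-fold higher, 28 had an interval above 1 and 2 had one below 1. The share of all genes with such intervals was not computed. Together the members took 0.553% (0.547 to 0.559) of counts in mutant cells and 0.418% (0.413 to 0.423) in sibling cells. Nearly all differences were thus in the same direction and most were smaller than 2-fold.

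**Figure D1:**
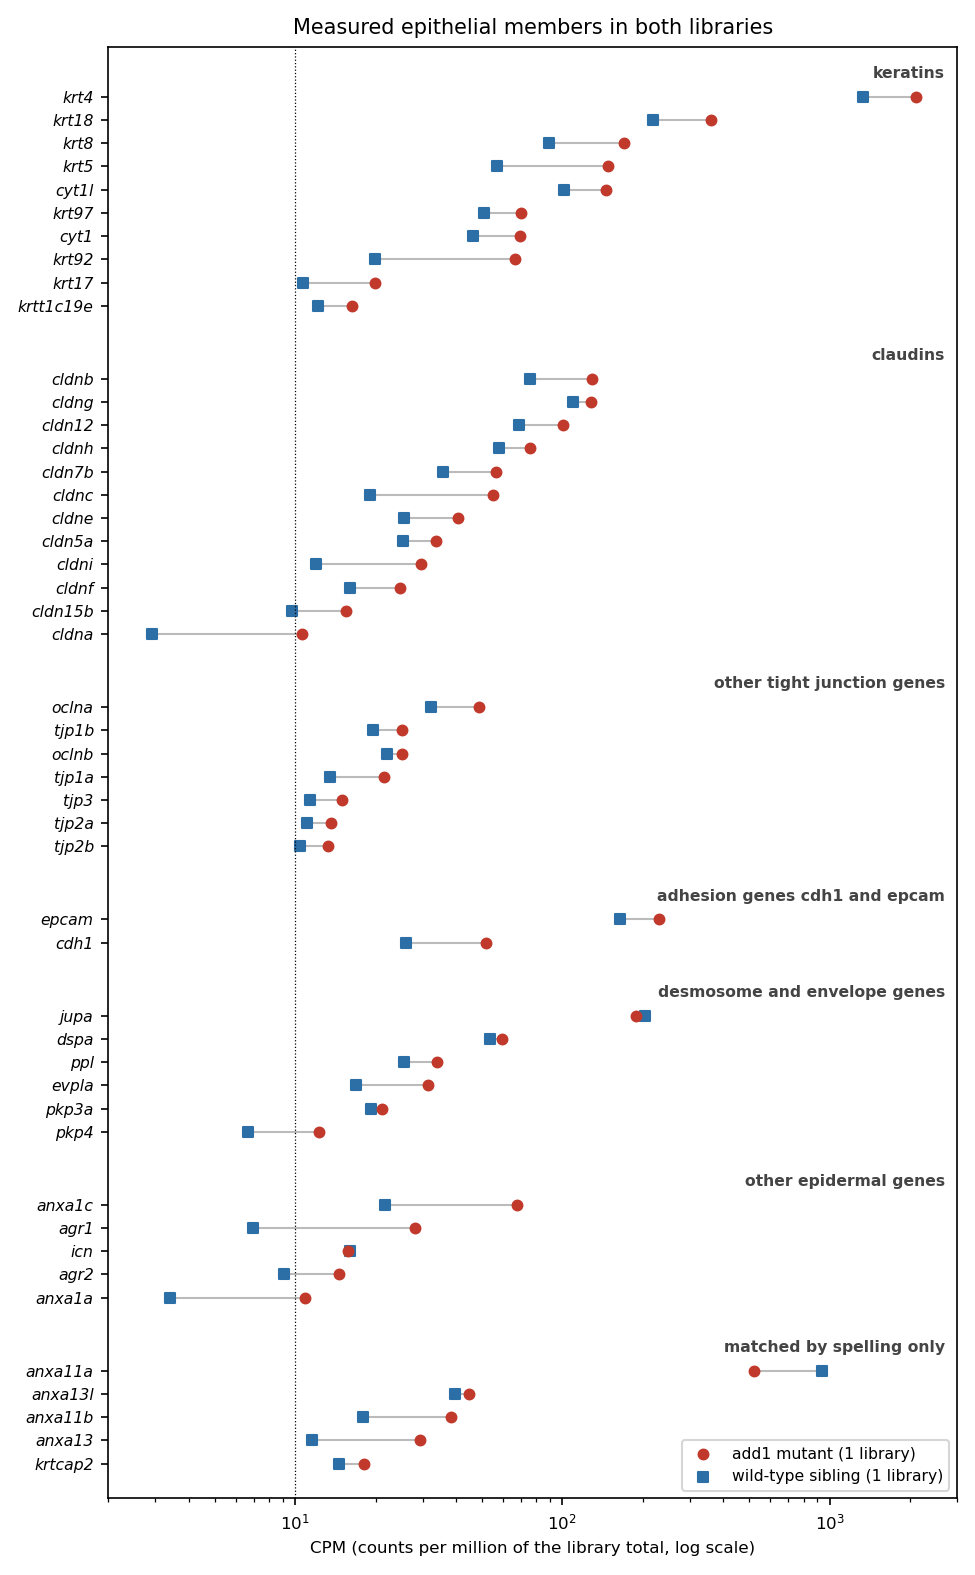
Level of each of the 47 measured members, in CPM on a log axis, with circles for the mutant library and squares for the sibling library, grouped by role; the dotted line is the minimum of 10 CPM. The circle lies to the right of the square for 44 of 47 genes, and *jupa*, *icn* and *anxa11a* are the exceptions.

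**Figure D2:**
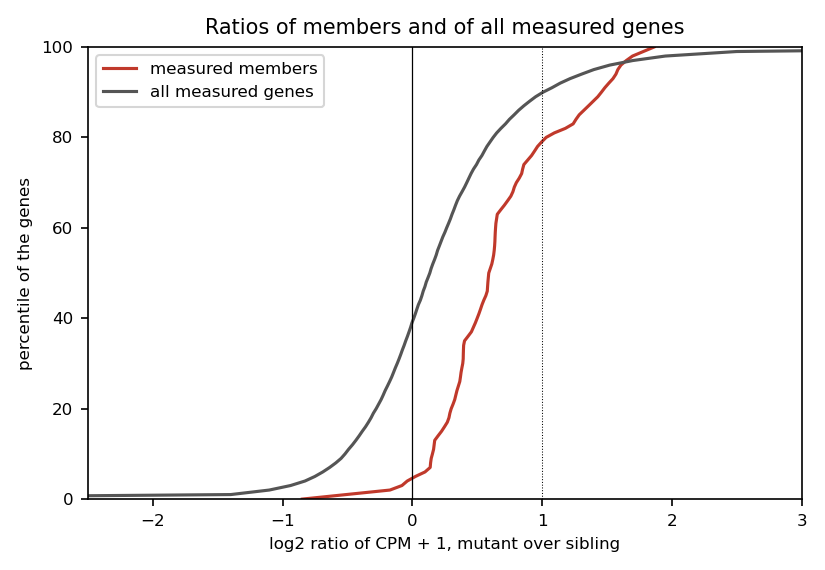
Percentile (vertical axis) of the log2 ratio of CPM + 1, mutant over sibling (horizontal axis), for the measured members and for all measured genes. The member curve lies to the right at its middle, with medians of 0.59 and 0.13, and ends at 1.86, while that of all genes runs past the axis to 5.64.

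Keratins held the most counts of the members. All 10 measured keratins were higher in mutant cells, against 60.8% of all measured genes. At least 2-fold higher were 2 of them (20%), against 10.1%. The 19 keratin rows together were at 3193 CPM in mutant cells and 1955 CPM in sibling cells, a ratio of 1.63 (1.60 to 1.67). *krt4*, a type II keratin of the zebrafish periderm, made up 66.1% of keratin counts in mutant cells and 68.5% in sibling cells. It had 12564 counts in mutant cells and 8249 in sibling cells, or 2109 and 1340 CPM, a ratio of 1.57 (1.53 to 1.62). By length it reached 854 FPKM (fragments per kilobase, scaled to library size) in mutant cells and 543 FPKM in sibling cells, rank 41 and rank 65 among all genes. The next members by length were *anxa11a*, at 149 FPKM in mutant cells and 268 FPKM in sibling cells, *epcam*, at 150 and 107 FPKM, *krt18*, at 119 and 72.2 FPKM, and *cldnb*, at 117 and 68.4 FPKM.

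Without *krt4* the other keratins summed to a level 1.76-fold higher (1.69 to 1.83) in mutant cells. *krt8* and *krt18*, the type II and type I partners of simple epithelia, had ratios whose intervals overlapped. *krt8* was at 170 CPM in mutant cells and 89.2 CPM in sibling cells, a ratio of 1.90 (1.71 to 2.12), and *krt18* at 359 and 218 CPM, a ratio of 1.64 (1.54 to 1.76). *krt5*, a type II keratin whose mammalian counterpart marks basal epidermis, was 2.59-fold higher (2.28 to 2.94), at 148 CPM in mutant cells and 57.2 CPM in sibling cells. The largest ratio among measured keratins was that of *krt92*, at 66.3 CPM in mutant cells and 19.97 CPM in sibling cells, 3.32-fold higher (2.71 to 4.10). *krt97* had a ratio of 1.38 (1.19 to 1.60).

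The type I keratins of chromosome 19 lie next to each other, 7 genes between bases 5408167 and 5464284 of build GRCz10. Summed, they were at 325 CPM in mutant cells and 196 CPM in sibling cells, a ratio of 1.66 (1.54 to 1.78). *cyt1l* and *cyt1*, type I keratins of the enveloping layer, the precursor of the periderm, were at 146 and 69.5 CPM in mutant cells and at 102 and 46.3 CPM in sibling cells. *krt17* had 119 counts in mutant cells and 66 in sibling cells. *krtt1c19e*, a keratin known from zebrafish basal epidermal cells, had 97 counts in mutant cells and 75 in sibling cells, and its interval of 0.979 to 1.83 held 1. *krt91*, at the end of the row and below the minimum, was the one keratin with fewer counts in mutant cells, 6 against 22 in sibling cells. The table's spans of *krt92*, *cyt1l*, *cyt1*, *krt17* and *krt91* overlap, by up to 8239 bases for *krt92* and *cyt1l*, so the split of reads among these genes is uncertain and the sum is the firmer value. The spans of *krt96* and *krt97* on chromosome 22 overlap too, and *krt97* held 417 of their 430 counts in mutant cells and 313 of 321 in sibling cells.

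**Figure D3:**
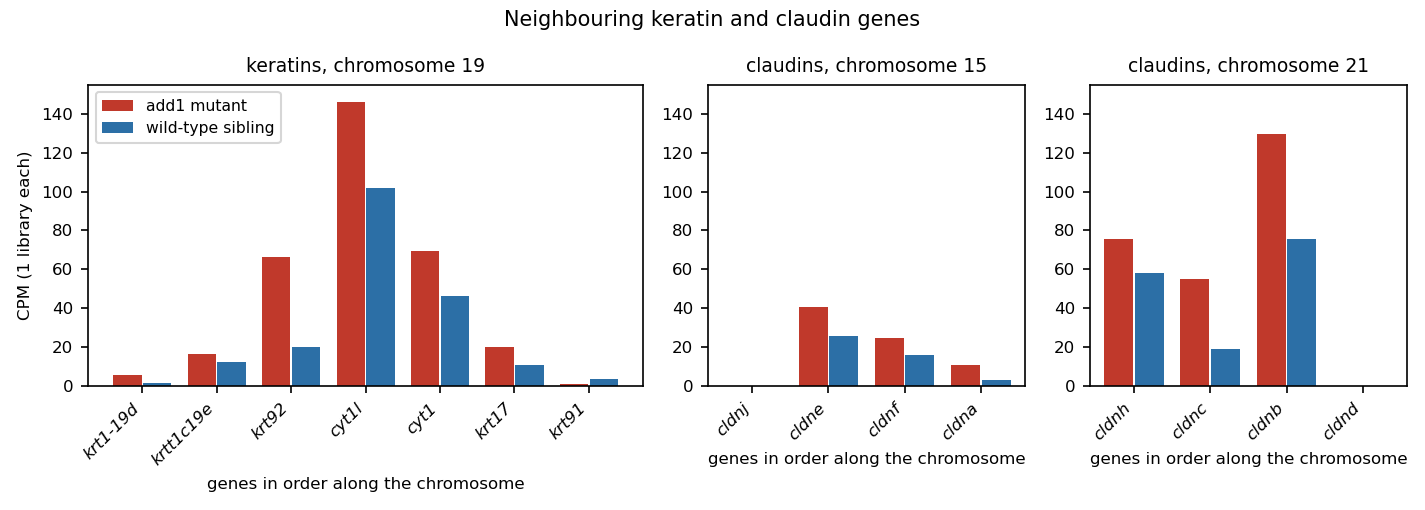
CPM of neighbouring keratins of chromosome 19 and claudins of chromosomes 15 and 21, in chromosome order, with the mutant library left of the sibling library in each pair. The mutant bar is the taller for every gene above 10 CPM, *krt91* shows the opposite order, and *cldnd* had 0 counts in both libraries.

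All 12 measured claudins were higher in mutant cells, against 60.8% of all measured genes. At least 2-fold higher were 3 of them (25%), against 10.1%. That shared direction depended on the minimum. *cldna* and *cldn15b* reached it in the mutant library only. *cldn15a*, at 6.55 CPM in mutant cells and 9.74 CPM in sibling cells, fell just below it. Each of the 12 had an interval above 1, against 40% of all measured genes. With TMM factors only 8 of the 12 did, and those of *cldng*, *cldnh*, *cldn5a* and *cldn15b* held 1. Claudins are the membrane proteins that seal a tight junction or give it its pores. The 28 claudin rows summed to 722 CPM in mutant cells and 483 CPM in sibling cells, a ratio of 1.49 (1.43 to 1.57). The claudins with the most counts were *cldnb*, known from the zebrafish lateral line and skin, at 130 CPM in mutant cells and 75.7 CPM in sibling cells, and *cldng*, at 129 and 109 CPM. *cldng* had the smallest ratio of the measured claudins, 1.17 (1.06 to 1.305), and its share of claudin counts was 17.8% in mutant cells and 22.6% in sibling cells.

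The 3 claudins past 2-fold were *cldnc*, *cldni* and *cldna*. *cldnc* had 329 counts in mutant cells and 117 in sibling cells, 2.91-fold higher (2.35 to 3.62). *cldni* had 176 and 74 counts in the same order, 2.46-fold higher (1.86 to 3.27). *cldna* had 63 counts in mutant cells and 18 in sibling cells, 3.62-fold higher (2.12 to 6.49), and lay just above the minimum. By length they were not the highest claudins. *cldnc* reached 29.8 FPKM in mutant cells and 10.3 FPKM in sibling cells, while *cldnh* reached 37.4 and 28.7 FPKM and *cldng* 75.1 and 63.9 FPKM.

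Claudins of the same neighbourhood differed in size of ratio. On chromosome 21, *cldnh*, *cldnc* and *cldnb* lie in that order between 25702690 and 25741596, with ratios of 1.303 (1.13 to 1.502), 2.91 (2.35 to 3.62) and 1.71 (1.52 to 1.93). Their intervals did not overlap. This group lies far from *add1*, which is on the same chromosome between 1964471 and 2042174. On chromosome 15, between 2667849 and 2693936, *cldne*, a claudin of the enveloping layer, had a ratio of 1.58 (1.29 to 1.95), *cldnf* one of 1.54 (1.18 to 2.001) and *cldna* the 3.62 given above. Summed, the chromosome 21 group had a ratio of 1.71 (1.57 to 1.85), the chromosome 15 group one of 1.70 (1.46 to 1.99) and the other 20 claudins one of 1.35 (1.27 to 1.44). Those others included *cldn7b* at 56.4 CPM in mutant cells and 35.9 CPM in sibling cells, *cldn15b* at 15.4 and 9.74 CPM, and *cldn12* at 100.7 and 68.9 CPM. The span of *cldn12* takes in other genes, among them *slc25a40* and *dbf4*, so its count may hold some of their reads.

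*cldn5a*, a barrier claudin of the zebrafish brain, was at 33.6 CPM in mutant cells and 25.3 CPM in sibling cells, a ratio of 1.33 (1.07 to 1.64). Its paralog *cldn5b*, known from endothelium, stayed below the minimum with 29 counts in mutant cells and 17 in sibling cells. The endothelium list had a median log2 ratio of 0.32 over 11 measured genes, 0 of them past 2-fold in either direction. Over all measured genes the median was 0.13, with 10.1% past 2-fold upward and 2.56% downward.

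Occludins and the scaffold of the tight junction had ratios nearer to 1. All 7 occludin and zonula occludens genes were measured, all 7 were higher in mutant cells, and 0 passed 2-fold. Of all measured genes, 60.8% were higher and 10.1% at least 2-fold higher. With TMM factors the intervals of 2 of the 7, *oclna* and *tjp1a*, lay above 1. *oclna*, an occludin, had 291 counts in mutant cells and 199 in sibling cells, a ratio of 1.51 (1.26 to 1.82), while *oclnb* had 149 and 136 counts, a ratio of 1.13 (0.892 to 1.44) that turned below 1 with TMM factors. The 5 *tjp* genes, which encode zonula occludens proteins, summed to 88.5 CPM in mutant cells and 65.9 CPM in sibling cells, a ratio of 1.34 (1.18 to 1.53). *tjp1a* had the largest ratio among them, 1.59 (1.20 to 2.13), and its paralog *tjp1b* one of 1.28 (1.002 to 1.64). *tjp3*, *tjp2a* and *tjp2b* had ratios of 1.31, 1.23 and 1.28, with intervals that held 1. The interval of the *tjp* sum overlapped that of the claudin sum.

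*cdh1*, which encodes E-cadherin of the adherens junction, had 309 counts in mutant cells and 160 in sibling cells. These were 51.9 and 26.0 CPM, a ratio of 1.997 (1.64 to 2.43), and with 1 CPM added the gene fell just short of the 2-fold rule, at 0.97 on the log2 scale. *epcam*, an adhesion protein of embryonic epithelia, was at 231 CPM in mutant cells and 164 CPM in sibling cells, a ratio of 1.40 (1.29 to 1.52). Both genes were higher in mutant cells, with intervals above 1. Of all measured genes, 60.8% were higher and 40% had an interval above 1.

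Desmosome and envelope genes were the group nearest to equal levels. The 10 rows summed to 351 CPM in mutant cells and 330 CPM in sibling cells, a ratio of 1.06 (1.0003 to 1.13) that turned to 0.925 with TMM factors. The sum was set by *jupa*, which encodes plakoglobin, a catenin shared by desmosomes and adherens junctions. *jupa* had 1123 counts in mutant cells and 1257 in sibling cells, or 189 and 204 CPM, a ratio of 0.924 (0.851 to 1.002) whose interval lay below 1 with TMM factors. Without it the group had a ratio of 1.29 (1.17 to 1.42). *dspa*, for desmoplakin, which ties keratin filaments to the desmosome, was at 59.4 CPM in mutant cells and 53.8 CPM in sibling cells, and *pkp3a*, a plakophilin, at 21.2 and 19.2 CPM. Both of these had intervals that held 1 and ratios that turned below 1 with TMM factors. The plakins of the cell envelope stood higher. *evpla*, for envoplakin, had 187 counts in mutant cells and 104 in sibling cells, a ratio of 1.86 (1.45 to 2.39), and *ppl*, for periplakin, 203 and 158 counts, a ratio of 1.33 (1.07 to 1.65). With TMM factors the interval of *ppl*, 0.933 to 1.43, held 1. *pkp4*, a plakophilin-related protein of cell contacts, had a ratio of 1.84 (1.24 to 2.77) from 73 counts in mutant cells and 41 in sibling cells. It reached the minimum in the mutant library only. Intervals of *evpla* and of *dspa* (0.949 to 1.29) did not overlap, so these genes of the group differed by more than their counting intervals cover.

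**Figure D4:**
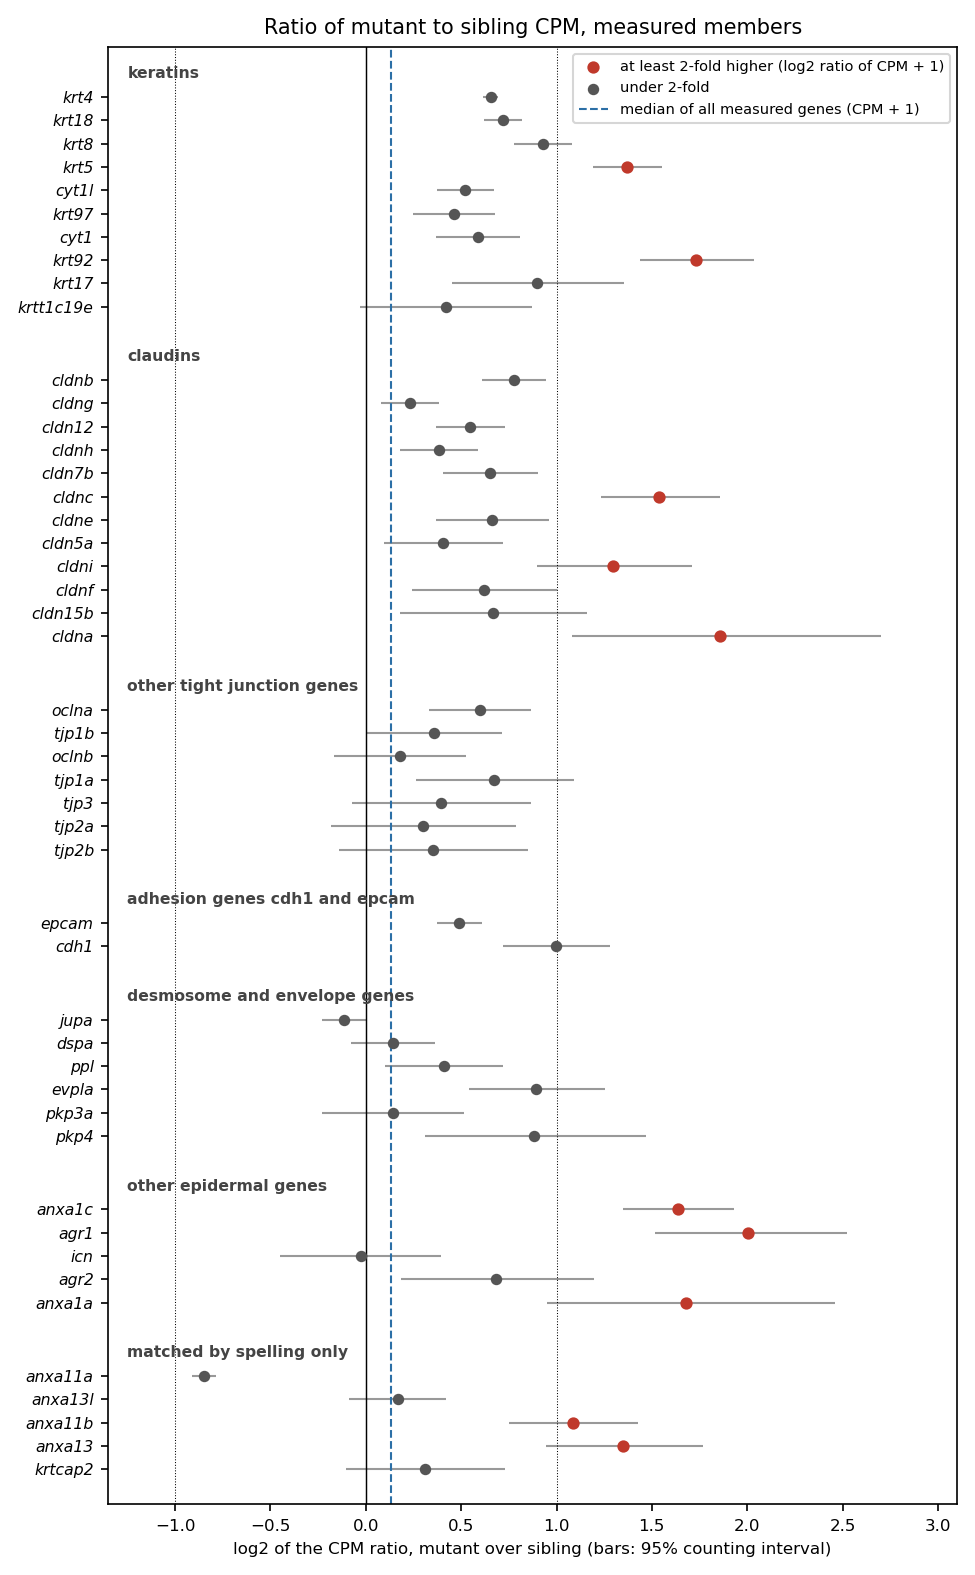
Log2 of the CPM ratio, mutant over sibling, for each measured member with its 95% counting interval, in the same groups; red points passed the 2-fold rule, dotted lines mark 2-fold either way and the dashed line is the median of all measured genes (0.13). Keratins and claudins all lie to the right of 0, *jupa* and *dspa* lie near it, and *anxa11a* lies near -0.85.

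The other epidermal genes held 3 of the 10 members past 2-fold, beside *icn* with a ratio near 1. Of this group 5 genes were measured, and 10.1% of all measured genes were at least 2-fold higher. *agr1*, *agr2* and *anxa1a* reached the minimum in the mutant library only, so the minimum itself set their direction. *agr1*, an anterior gradient gene of the protein disulfide isomerase family, had 167 counts in mutant cells and 43 in sibling cells, 4.02-fold higher (2.86 to 5.75) and the highest ratio of any measured member. *agr2*, known from mucus-secreting cells, had 87 and 56 counts, a ratio of 1.61 (1.14 to 2.29), and the intervals of these paralogs did not overlap. With TMM factors the interval of *agr2*, 0.987 to 1.99, held 1. *anxa1c*, 1 of 3 rows for annexin A1, a phospholipid-binding protein, was at 67.7 CPM in mutant cells and 21.8 CPM in sibling cells, 3.11-fold higher (2.55 to 3.81). *anxa1a* had 65 and 21 counts, 3.20-fold higher (1.93 to 5.51). *anxa1b*, below the minimum, had 42 and 18 counts, a ratio of 2.41 (1.36 to 4.45). The 3 rows were thus all higher in mutant cells, and their sum was 3.05-fold higher (2.56 to 3.64). A row outside the members that the name table gives as *anxa1d*, *zgc:110283*, had 7 counts in mutant cells and 8 in sibling cells. *anxa1b* overlaps *pmpca*, which has far more counts.

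The ictacalcin genes, which encode calcium-binding S100 proteins of fish epithelia, had intervals that held 1. *icn* had 94 counts in mutant cells and 99 in sibling cells, a ratio of 0.982 (0.732 to 1.32). *icn2*, below the minimum, had 48 and 42 counts, a ratio of 1.18 (0.765 to 1.83). *tp63*, the transcription factor of basal epidermis, was also below the minimum, with 33 counts in mutant cells and 18 in sibling cells, a ratio of 1.90 (1.04 to 3.58). *lye*, a Ly6-related gene of the epidermis, had 32 and 19 counts, with an interval of 0.957 to 3.25 that held 1. Epidermal genes thus ranged in ratio from that of *icn*, near 1, to that of *agr1*.

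In all, 7 rows matched by spelling and belong to none of these roles. *anxa11a*, an annexin found in many cell types, had the most counts of them and was, by library total, the one measured member whose interval lay below 1. It had 3096 counts in mutant cells and 5767 in sibling cells, or 520 and 937 CPM, 1.80-fold lower (1.72 to 1.88), and it passed 2-fold lower with TMM factors. Its paralog *anxa11b* was 2.12-fold higher (1.69 to 2.69), from 228 counts in mutant cells and 111 in sibling cells. *anxa13* had 175 and 71 counts, 2.55-fold higher (1.92 to 3.41), while *anxa13l* had 266 and 245 counts, a ratio of 1.12 (0.94 to 1.34) that turned below 1 with TMM factors. *krtcap2*, a subunit of the enzyme that attaches sugars to proteins, had a ratio of 1.24 (0.929 to 1.66). *cldnd1b* and *cldnd1a* stayed below the minimum, with 16 counts each in mutant cells and 33 and 4 in sibling cells. *anxa11a* alone held 3096 of the 32933 member counts in mutant cells and 5767 of 25727 in sibling cells. Without the 7 rows the summed ratio of the members was 1.55 (1.52 to 1.57), against 1.32 (1.302 to 1.35) with them.

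Of the 27 members with some counts below the minimum, 19 had a log2 ratio above 0 and 8 below. An interval above 1 was found for 5 of them and one below 1 for 3. The shares of all genes below the minimum with such ratios and intervals were not computed. *krt94* had 55 counts in mutant cells and 17 in sibling cells, a ratio of 3.34 (1.91 to 6.15). *cldn15a*, a claudin of the zebrafish gut, had 39 and 60 counts, and *cldn11b* 32 and 40, both with intervals that held 1. *cldn10b*, named after its values were seen like *krt91* and *cldn5b*, had 3 counts in mutant cells and 17 in sibling cells. Of the members with a count, 6 had none in sibling cells, with at most 4 in mutant cells, and 1 had none in mutant cells. Those with none in either library were *krt15*, *krt93*, *krt95*, *krt1-c5*, *cldnd*, *cldn10a*, *cldn11a* and *cldn19*, and a floor of 3 counts corresponds to 0.504 CPM in mutant cells and 0.487 CPM in sibling cells.

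A further 17 rows carry another name in the table but a matching symbol in the name table. Of these, 3 were measured, all 3 with ratios above 1, against 60.8% of all measured genes. Those with counts below the minimum went in both directions. *KRT23* (ENSDARG00000019365, *krt99* in the name table) had 92 counts in mutant cells and 4 in sibling cells, 23.8-fold higher (8.98 to 89.1), a larger ratio than that of any measured member. It reached the minimum in the mutant library only. A row named *KRT18 (1 of many)* (ENSDARG00000028618, *krt18b* in the name table) had 396 and 337 counts, a ratio of 1.21 (1.05 to 1.41). The other one was *zgc:110333*, a claudin gene in the name table, with 93 and 69 counts.

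Genes that work with the members were also mostly higher. Of 33 genes found for a list of junction partners, 16 were measured, with a median log2 ratio of 0.44. Ratios were above 1 for 15 of them, against 60.8% of all measured genes. Only 2 were at least 2-fold higher (12.5%), a share near the 10.1% of all measured genes. Both of these, *pvrl3b* and *marveld1*, reached the minimum in the mutant library only. With 10 CPM or more asked of both libraries, 13 partners remained, with a median of 0.41 against 0.08 for all genes. *pvrl3b*, a nectin of the adherens junction, had 146 counts in mutant cells and 28 in sibling cells, 5.39-fold higher (3.58 to 8.39). *marveld1* was 2.31-fold higher (1.56 to 3.49). *dsc2l*, a desmosomal cadherin, had a ratio of 1.96 (1.47 to 2.62) and *magi1b*, a junction scaffold, one of 1.85 (1.36 to 2.54). The catenins *ctnnb1* and *ctnna1* had ratios of 1.38 and 1.33. Another catenin, *ctnnb2*, was the 1 measured partner that went the other way. It had 336 counts in mutant cells and 368 in sibling cells, a ratio of 0.944 with an interval that held 1.

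A list of 42 epidermis and periderm genes outside the members had 22 measured, with a median log2 ratio of 0.52. Ratios were above 1 for 19 of the 22, against 60.8% of all measured genes. At least 2-fold higher were 5 (22.7%), against 10.1%, and at least 2-fold lower 0, against 2.56%. Among the 5, *anxa2a*, *spint1b* and *elovl7a* reached the minimum in the mutant library only. With 10 CPM or more asked of both libraries, 16 genes remained, with a median of 0.37 against 0.08 for all genes. *anxa2a*, another annexin, had 157 counts in mutant cells and 39 in sibling cells, 4.16-fold higher (2.91 to 6.07). *spint1b*, a protease inhibitor of the skin, was 3.15-fold higher (1.90 to 5.43), *elovl7a*, a fatty acid elongase, 2.70-fold (1.70 to 4.43) and *capn9*, a calpain, 2.32-fold (1.74 to 3.11). *foxi3a*, a transcription factor of ionocytes, went the other way, at 80.6 CPM in mutant cells and 117 CPM in sibling cells. So did *sult2st1*, with a ratio of 0.834 (0.710 to 0.978), and *foxi3b*, with one of 0.883 (0.713 to 1.09). The summed level of this list, 2777 CPM in mutant cells and 2570 CPM in sibling cells, was mostly *klf17*, at 2059 and 2027 CPM, which also stands in the hatching gland list. Which cells the *klf17* counts came from was not tested. The 5 genes of the list at 50 CPM or more had a median of 0.023, against 0.048 for all genes of that level.

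Markers of other tissues moved with the members, and their part in the members' values was not tested. For comparison, 60.8% of all measured genes were higher in mutant cells, and 10.1% passed 2-fold in that direction. Hatching gland genes were higher in 8 of 8 measured cases, 5 by at least 2-fold, with sums of 5966 CPM in mutant cells and 2704 CPM in sibling cells. Most of the sibling sum was *klf17*, whose ratio of 1.02 had an interval (0.991 to 1.04) that held 1. Without *klf17* the sums were 3907 CPM in mutant cells and 678 CPM in sibling cells, a ratio of 5.77 in place of 2.21. Notochord genes were higher in 5 of 5, 4 by at least 2-fold, with sums of 197 and 27.0 CPM in the same order. All 5 reached the minimum in the mutant library only, so the minimum itself set their direction. Skeletal muscle genes were higher in 13 of 13, 11 by at least 2-fold, at 12998 CPM in mutant cells and 4061 CPM in sibling cells. Neural genes were higher in 6 of 6, 4 by at least 2-fold, at 373 and 147 CPM. Among the muscle and neural genes past 2-fold, *myog* and *isl1* reached the minimum in the mutant library only. The median log2 ratios of the hatching gland, skeletal muscle and neural lists, 2.62, 1.32 and 1.27, were all above the 0.59 of the members. That of the notochord list, 2.62, was fixed in direction by the minimum and gives no such comparison. Red cell genes had a median of -1.06 over 11 genes. In mutant cells 6 of them were at least 2-fold lower, against 2.56% of all measured genes. Their sums were 32776 CPM in mutant cells and 69697 CPM in sibling cells.

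**Figure D5:**
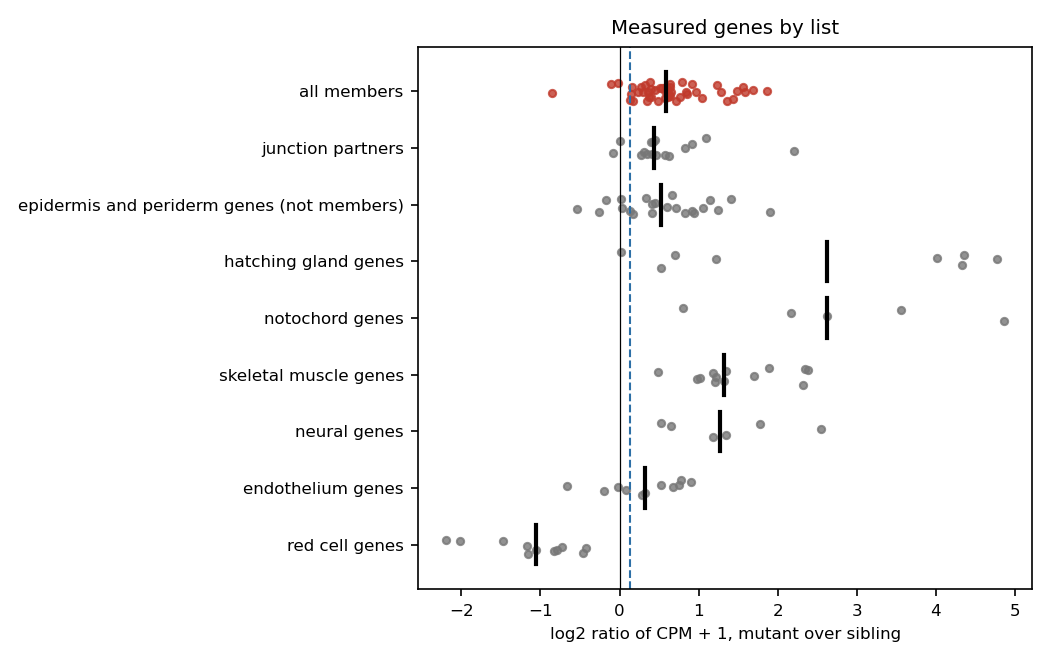
Log2 ratio of CPM + 1, mutant over sibling (horizontal axis), for the measured genes of the members and of each marker list, 1 point per gene, with the list median as a black bar and the median of all measured genes (0.13) as a dashed line. Hatching gland, notochord, muscle and neural medians lie right of that of the members (0.59), and red cell genes lie left of 0. Every notochord gene shown reached the minimum in the mutant library only, so its direction was fixed.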

How the data were processed

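Per the labels' protocols, cDNA was amplified with the SMART-Seq HT kit and read on a BGISEQ-500 instrument. The genome build was GRCz10, per the submitters' processing notes, and the sources used here name no aligner, counter or strand setting. Per the file headers, the authors deposited a count and an FPKM value for each gene and library, and the counts are whole numbers that were not normalized. Coordinates are those of the table.

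Counts were divided by library totals (5956344 and 6157792) to give CPM, and log2 ratios are of CPM + 1, so small levels give understated ratios. The minimum of 10 CPM equals 59.6 counts for the mutant library and 61.6 for the sibling library. Intervals are exact (Clopper-Pearson, 95%, SciPy 1.17.1). TMM factors came from edgeR 4.0.16 (R 4.3.3). The ratio and interval calculation was tested on simulated counts that held counting noise only. That test cannot show whether the intervals are wide enough for amplified cDNA. The members, the lists and the alternatives were chosen with earlier results of these data known.

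Named genes are all measured members, the 8 members below the minimum with the most counts, *add1*, *gata1a*, *alas2*, *hbbe1.1* and up to 4 genes of the partner and epidermis lists with the largest ratios. Others (*krt91*, *krt96*, *cldn10b*, *cldn5b*, *cldnd1a*, *ctnnb1*, *ctnna1*, *ctnnb2*, *foxi3a*, *foxi3b*, *sult2st1*, *klf17*, *myog*, *isl1*, the rows of other names and members at 0) were named after their values were seen. List symbols were looked up as table names, then through a table of gene IDs; 11 were not found. No sequence was used.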

Additional observations from a re-analysis of the deposited data

How the results depend on the processing

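Under every alternative tried the medians of members, keratins, claudins, junction partners and epidermis genes kept their sign. Library composition shifts all ratios: TMM and median-of-ratios factors gave a median log2 ratio of members of 0.38 and 0.39 and of junction partners of 0.24 and 0.25, and with a minimum of 50 CPM that of epidermis genes was 0.023. The summed ratios with TMM factors, median-of-ratios factors and totals that leave out globin, ribosomal protein and mitochondrial genes were 1.42, 1.42 and 1.52 for keratins and 1.299, 1.301 and 1.39 for claudins. For desmosome and envelope genes they were 0.925, 0.926 and 0.987, which reversed the direction. Alternatives chosen after seeing the data gave 1.29 for that group without *jupa* and 1.76 for keratins without *krt4*. The number of members at least 2-fold higher (10 of 47) was 6 of 28 with FPKM, against 7.23% of all measured genes, 4 of 20 with a minimum of 50 CPM, against 6.35%, 24 of 47 at 1.5-fold, against 21.5%, and 0 of 47 at 4-fold, against 1.85%. The number at least 2-fold lower (0 of 47) was 1 of 47 with TMM or median-of-ratios factors, against 4.52% and 4.48% of all genes, where *anxa11a* passed, 1 of 47 at 1.5-fold, against 8.17%, 2 of 65 with a minimum of 1 CPM, against 3.43%, and 2 of 74 with none, against 2.70%. No paired analysis was possible because there was 1 library per genotype, and for the same reason no library could be left out. The counting interval held 1 for 11 of 47 measured members. Intervals with TMM factors, and the hatching gland sum without *klf17*, were added after seeing the data.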
